A study of Homo sapiens with 8 samples.

Results

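The mucins and trefoil factors of the intestinal mucus barrier were examined in Caco-2 cells exposed to Lactobacillus plantarum MB452 and in control Caco-2 cells. The set comprised 10 genes, MUC1, MUC2, MUC4, MUC5AC, MUC13, MUC17, MUC20, TFF1, TFF2 and TFF3, of the 17969 genes measured. It was taken by gene symbol from the annotation of the array, and was chosen with earlier results of these data known. The 10 genes were covered by 25 of the 44290 array features, a feature being 1 probe spot. None of the 10 genes was past the threshold of the study, and their differences between MB452 and control pools lay between -0.15 and 0.16 on the log2 scale.

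MB452 is a Lactobacillus plantarum strain whose effect on the intestinal barrier was the subject of the study. Caco-2 is a human colorectal adenocarcinoma line which, once differentiated, resembles absorptive enterocytes. Monolayers in 6-well plates were cultured for 18 days in both groups and then kept for 10 h in M199 medium with non-essential amino acids, with MB452 cells at an optical density of 0.9 in the MB452 wells and with no bacteria in the control wells. RNA of 3 wells was combined into a pool, giving pools A and B with MB452 and pools A and B of control cells, so that n = 2 pools in each group. A single cell line was used, and nothing in the sources says that the pools came from separate experiments, so the errors below measure the spread between these pools only.

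Mucins are large glycoproteins that carry dense O-linked sugar chains. MUC2 and MUC5AC are secreted and form gels, MUC2 in the mucus of the small and large intestine and MUC5AC mainly in that of the stomach and airways. MUC1, MUC4, MUC13, MUC17 and MUC20 are anchored in the apical membrane, where they form part of the glycocalyx and where several of them also signal into the cell. Trefoil factors are small, protease-resistant peptides that are secreted with mucins and promote repair of the epithelium, TFF1 and TFF2 mostly in the stomach and TFF3 in intestinal goblet cells.

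RNA of each pool carried the Cy5 dye and shared 1 Agilent slide with a Cy3-labelled reference. Per the protocol this reference was equal RNA from all wells, although the labels call that channel by the group of the slide. Each slide was scanned at a high and at a low setting, so that the 4 slides gave 8 columns of loess-normalised log ratios. No source states the log base, which was taken as 2. A pool value below is the log2 ratio of the pool over the reference, centred on the median of its column and, unless a scan is named, averaged over both scans. Such a ratio sets a pool against the mixture of all wells and does not give the level of the transcript, so the 10 genes could not be ranked by level. A difference is MB452 minus control on the log2 scale.

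Brightness was visible only where a spot had reached the value that a column repeats over many features, which was taken as saturation. In a high scan 1201 to 1534 of 42197 to 42308 features were at that value. The share of all genes there on all 4 slides is not given. Of 11 enterocyte markers, 6 (VIL1, FABP1, APOA1, EPCAM, KRT8 and KRT18) had a feature at that value in the high scan of all 4 slides. Of 7 goblet markers this held for 1, AGR2, and it held for none of the 5 gastric surface markers or the 5 markers of cells that are not epithelial. At such spots the ratio is set by the limit of the scanner, so these 6 markers give little on a difference between the groups. Over 42142 features the pools correlated at r = 0.67 between MB452 A and MB452 B and at 0.40 between control A and control B. Between the groups r ran from 0.38 (MB452 B and control B) to 0.61 (MB452 A and control A). Control A thus correlated more with MB452 A and with MB452 B (0.50) than with control B. These values are a description, with the reference shared by all.

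No mucin or trefoil gene was past the threshold of the study, a fold change over 1.2 with a modified p under 0.05, read here as the unadjusted two-sided moderated p of limma. By it, 0 of the 10 genes were called, beside 1.91% of all 17969 genes (1.04% higher and 0.868% lower with MB452), and 0 of the 25 features, beside 2.10% of 42142 features (1.30% higher and 0.800% lower). At a background this low, a count of 0 among 10 genes does not set the mucins and trefoil factors apart from other genes. Without the fold minimum, 0 of 10 genes and 1 of 25 features (the second of MUC17) had an unadjusted p under 0.05 in limma, beside 6.49% of all genes and 5.50% of all features. Without control A 1685 genes were past the threshold in place of 343, again with 0 of the 10 among them. The lowest Benjamini-Hochberg adjusted p in limma was 0.778 among the 10 genes and 0.871 among the 25 features. RNA of whole monolayers was measured, so fewer cells of a type and less RNA per cell cannot be told apart.

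The 95% confidence intervals show the size of change left possible in the measured ratios. Signal over background is unknown, so a narrow interval need not bound the change of a transcript near background. For 7 of the 10 genes the whole interval lay within 1.2-fold in either direction, which also held for 61.3% of all genes. With saturated values left out it held for 6, since the interval of TFF3 then ran from 0.83- to 1.03-fold. MUC13, TFF1 and TFF2 had intervals that reached past 1.2-fold on at least 1 side in either case. Of the 10 differences 4 were positive and 6 negative, all 4 positive ones being mucins, and the median was -0.046 beside -0.0093 over all genes. The distance between the 2 MB452 pools was larger than the difference between the groups in 7 of 10 genes, and the distance between the 2 control pools in 4.

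**Figure D1:**
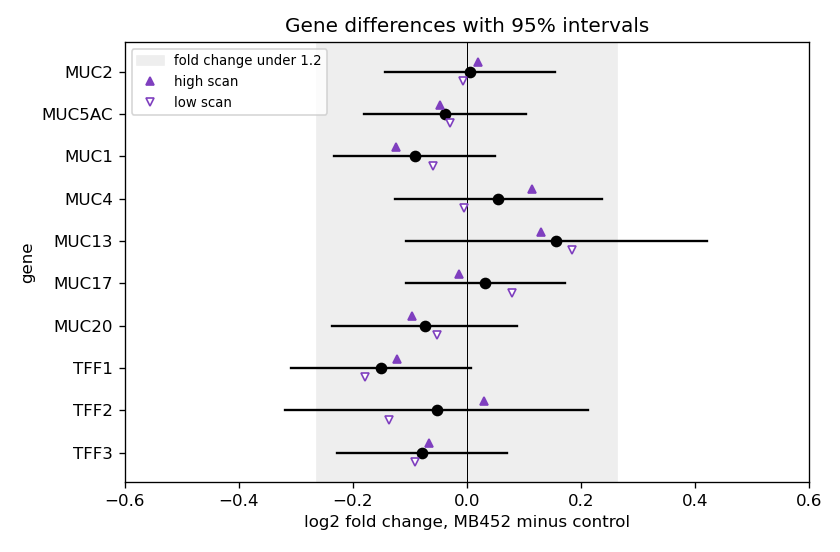
Difference between MB452 and control pools (log2, MB452 minus control) for each of the 10 genes, with black points and bars for the difference and its 95% confidence interval in limma (n = 2 pools each), triangles for each scan alone and shading for changes under 1.2-fold. All 10 intervals include 0, and those of MUC13, TFF1 and TFF2 leave the shaded range.

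Neither secreted mucin was past the threshold, and MUC2 had the smallest difference of the 10 genes. MUC2, the main gel-forming mucin of the colon, had values of -0.025 and -0.014 in MB452 pools A and B, against -0.066 and 0.014 in control pools A and B. Both MB452 values lay between the control values. The difference was 0.0060 ± 0.059 (SE), with a 95% interval of 0.91- to 1.11-fold and an adjusted p in limma of 0.990, and without control A it was -0.034. The 3 features of MUC2 differed in level against the reference more than the groups did. Its second feature was low in every pool, at -0.23 and -0.086 with MB452 and -0.20 and -0.19 in controls, while the third was at 0.077 and 0.082 with MB452 and -0.018 and 0.16 in controls. The groups overlapped in all 3 features.

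MUC5AC, the gel-forming mucin of the gastric surface, had values of -0.031 and -0.084 in the MB452 pools, against -0.021 and -0.018 in the control pools. The MB452 pools were both below the control pools, by a margin smaller than the distance between the MB452 pools. The difference was -0.038 ± 0.056 (SE), with an adjusted p in limma of 0.890. Of its 4 features, the first had the groups apart in each scan. In the high scan it read -0.088 and -0.085 with MB452, against -0.061 and 0.076 in controls. In the low scan it read -0.017 and -0.049 with MB452, against 0.091 and 0.063 in controls. The difference of this feature was -0.10 ± 0.061 (SE), while the other 3 features lay between -0.040 and 0.017.

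Of the membrane mucins, MUC13 had the largest positive difference and MUC1 the largest negative one. MUC13, a membrane mucin abundant in the intestine, had values of -0.092 and 0.14 in the MB452 pools, against -0.22 and -0.048 in the control pools. Pool B was higher than pool A in both groups, and the value of MB452 A lay between the control values. The difference was 0.16 ± 0.10 (SE), or 1.12-fold with a 95% interval of 0.93- to 1.34-fold, and an adjusted p in limma of 0.815. Its single feature gave a similar difference in both scans, 0.13 in the high and 0.18 in the low scan. The difference was 0.27 without MB452 A, 0.040 without MB452 B, 0.072 without control A and 0.24 without control B, none of these past the threshold.

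MUC1, a membrane mucin whose cytoplasmic tail takes part in signalling, had values of -0.047 and -0.0070 in the MB452 pools, against 0.052 and 0.078 in the control pools. The groups did not overlap, with MB452 below. The difference was -0.092 ± 0.055 (SE), or 0.94-fold with a 95% interval of 0.85- to 1.03-fold, and an adjusted p in limma of 0.812. Its single feature had the groups apart in the high scan, at -0.033 and -0.028 with MB452 against 0.11 and 0.080 in controls. In the low scan they overlapped, at -0.060 and 0.014 with MB452 against -0.0034 and 0.076 in controls.

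Promoter sequences from RefSeq (build GRCh38.p14) were held for 5 of the 10 genes, MUC1, MUC2, MUC4, MUC13 and MUC17. Those of the membrane mucins with the largest positive and negative difference and of the main intestinal gel-forming mucin are shown as the 250 bases before the start of the gene, for reference beside the transcription factor results below. Capitals mark each GGAAG, a sequence of the kind that ETS-family factors bind, or CTTCC, the same on the opposite strand. GGAA followed by another base is not marked. The windows are chr3:124934752-124935001 on the minus strand, chr1:155192916-155193165 on the minus strand (the first of 2 start sites listed) and chr11:1074624-1074873 on the plus strand.
MUC13: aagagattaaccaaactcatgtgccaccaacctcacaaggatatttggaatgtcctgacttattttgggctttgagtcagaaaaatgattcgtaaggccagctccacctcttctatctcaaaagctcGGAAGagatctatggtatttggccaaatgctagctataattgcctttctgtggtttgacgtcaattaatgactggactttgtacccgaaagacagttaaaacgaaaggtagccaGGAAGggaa
MUC1: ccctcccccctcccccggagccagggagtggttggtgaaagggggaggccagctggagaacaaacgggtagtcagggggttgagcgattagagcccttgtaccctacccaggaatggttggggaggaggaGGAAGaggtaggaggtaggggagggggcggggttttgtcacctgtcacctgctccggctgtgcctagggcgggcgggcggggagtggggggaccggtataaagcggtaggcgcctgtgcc
MUC2: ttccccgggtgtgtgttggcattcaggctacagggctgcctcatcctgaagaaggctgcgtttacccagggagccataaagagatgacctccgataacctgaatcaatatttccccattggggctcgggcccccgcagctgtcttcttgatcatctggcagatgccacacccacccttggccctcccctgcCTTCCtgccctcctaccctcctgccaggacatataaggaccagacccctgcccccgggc
The window of MUC13 held GGAAG at 2 sites, 123 and 9 bases before the start. That of MUC1 held 1, 120 bases before the start, and that of MUC2 held 1 on the opposite strand, 59 bases before the start. Searched on both strands, GGAAG occurred in 65.1% of all 35116 windows of this length, so its presence here is no mark of these genes. TATAAA was found only in MUC1, 24 bases before the start (10.7% of all windows), and TTTATG, a sequence of the kind that CDX factors bind, only in MUC2, 176 bases before the start on the opposite strand (9.6% of all windows), among the 5 promoters searched.

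MUC17, a membrane mucin of the enterocyte brush border, had values of -0.036 and 0.0066 in the MB452 pools, against -0.054 and -0.040 in the control pools. Both MB452 pools lay above both control pools by a small margin, and the difference was 0.032 ± 0.055 (SE), with an adjusted p in limma of 0.908. The gene value averages 4 features that did not run the same way. The second feature read 0.077 and 0.12 with MB452 against -0.065 and -0.060 in controls in the high scan, and 0.038 and 0.17 against -0.064 and -0.096 in the low scan. Both MB452 pools were above both control pools in each scan, and the difference was 0.17 ± 0.065 (SE). With an unadjusted p in limma of 0.0439 it was the lowest among the 25 features, but the change was under 1.2-fold and the adjusted p was 0.871. The third feature had the opposite sign, with slide means of -0.069 and -0.097 with MB452 against -0.043 and 0.15 in controls and a difference of -0.14 ± 0.085 (SE). All 4 features were annotated to the same transcript, and the difference between features was not tested.

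MUC4, the membrane mucin that binds the receptor ERBB2, had values of 0.21 and 0.060 in the MB452 pools, against 0.087 and 0.077 in the control pools. The highest and the lowest of the 4 values both belonged to MB452 pools. The difference was 0.055 ± 0.071 (SE), with an adjusted p in limma of 0.872. The high value of MB452 A came from the high scan of 2 of the 4 features. There the first and second feature read 0.57 and 0.72, while in the low scan of the same slide they read 0.15 and 0.19. In the low scan of the other slides these features read between 0.059 and 0.17, and the groups overlapped in both. In control B the second feature also read higher in the high scan, at 0.37 against 0.17 in the low scan. Over the low scans alone the difference of MUC4 was -0.0043, and without MB452 A it was -0.021, both of the opposite sign.

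MUC20, a membrane mucin known to interact with the receptor MET, had values of -0.066 and -0.14 in the MB452 pools, against -0.072 and 0.010 in the control pools. The groups overlapped, MB452 A and control A being nearly equal. The difference was -0.074 ± 0.064 (SE), with an adjusted p in limma of 0.826. Its 2 features gave differences of -0.058 and -0.090.

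**Figure D2:**
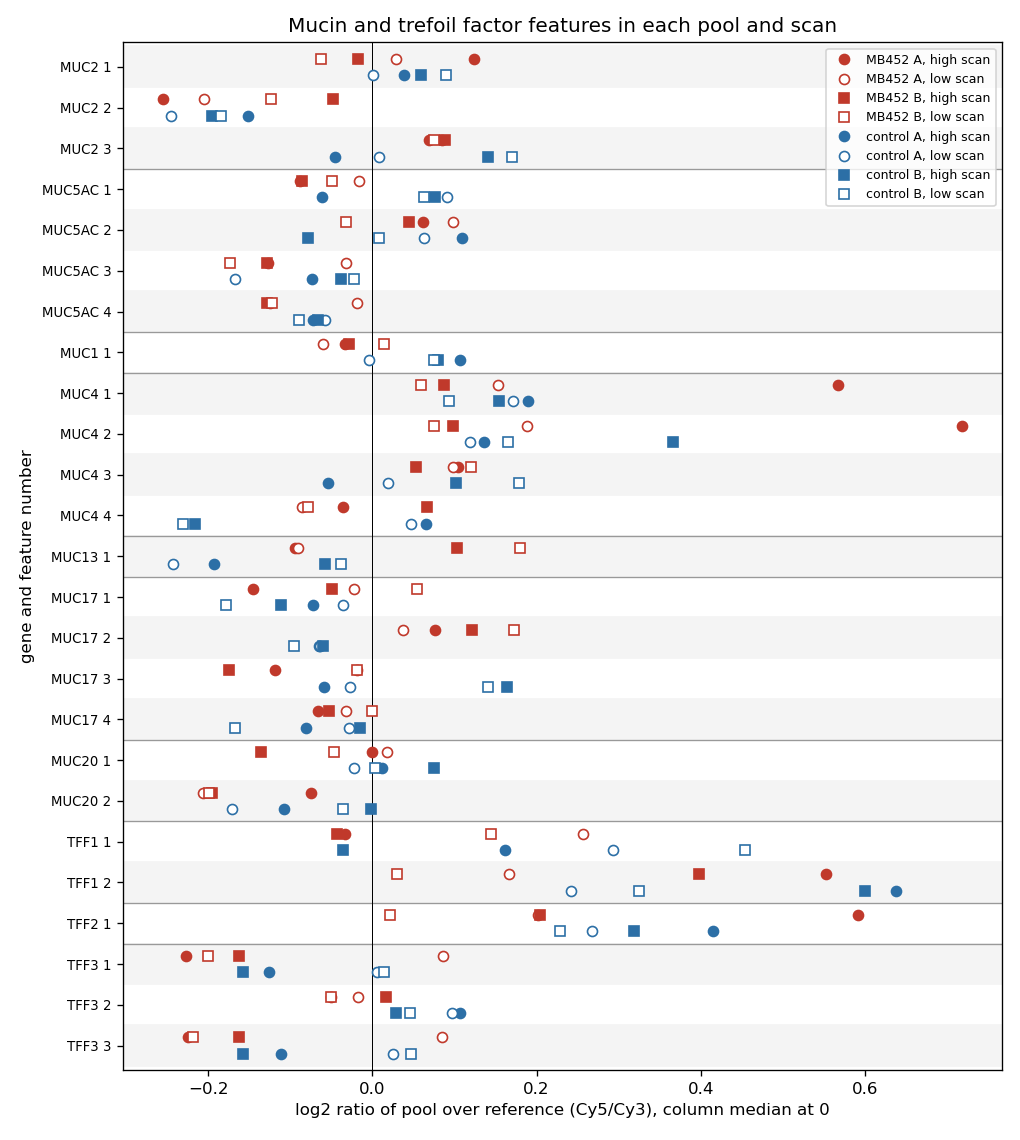
Log2 ratio over the reference for each of the 25 features of the 10 genes, with MB452 pools in red above control pools in blue, circles for pool A, squares for pool B, filled markers for the high and open markers for the low scan. Groups overlap in most features. The high scan of MB452 A stands apart from its low scan in several features, among them 2 of MUC4 and that of TFF2. The TFF2 feature read higher in the high scan on every slide.

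None of the 3 trefoil genes was past the threshold. Their 6 features had negative slide-mean differences, as did 8 of the 19 mucin features and 52.3% of all features, but in the high scan alone 5 of the 6 were negative, and features of 1 gene are not independent. TFF1, the trefoil peptide secreted with MUC5AC in the stomach, had the lowest p of the 10 genes. Its values were 0.24 and 0.13 in the MB452 pools, against 0.33 and 0.34 in the control pools. The control pools were nearly equal and above both MB452 pools. The difference was -0.15 ± 0.062 (SE), or 0.90-fold with a 95% interval of 0.81- to 1.01-fold. The unadjusted p in limma was 0.0579 and the adjusted p 0.778. An exact permutation test of 2 against 2 pools cannot go below p = 0.333 and was not used.

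The 2 features of TFF1 gave similar differences, -0.14 and -0.16, although their ratios differed by scan. The first feature read lower in the high scan, at -0.033 and -0.043 with MB452 and 0.16 and -0.035 in controls, than in the low scan, at 0.26 and 0.14 with MB452 and 0.29 and 0.45 in controls. The second feature was the other way round, at 0.55 and 0.40 with MB452 and 0.64 and 0.60 in controls in the high scan, and at 0.17 and 0.030 with MB452 and 0.24 and 0.33 in controls in the low scan. Within each scan of the second feature both MB452 pools were below both control pools, and the gap between scans was larger than the difference between groups. The mean of this feature over the 4 slides, 0.37, was at the 99.3rd percentile of all features, although the reference was a mixture of these pools. The part of the scan setting in the TFF1 values was not tested.

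TFF2, the trefoil peptide of gastric mucous neck cells, had values of 0.40 and 0.11 in the MB452 pools, against 0.34 and 0.27 in the control pools. As for MUC4, the MB452 pools gave both the highest and the lowest value. The difference was -0.053 ± 0.10 (SE), with a 95% interval of 0.80- to 1.16-fold and an adjusted p in limma of 0.923. Its single feature read 0.59 in the high and 0.20 in the low scan of MB452 A. The high scan was also above the low scan in MB452 B (0.20 against 0.021), control A (0.42 against 0.27) and control B (0.32 against 0.23). The difference was 0.030 over the high scans and -0.14 over the low scans, and 0.089 without MB452 B, so its direction was not settled.

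TFF3, the trefoil peptide of intestinal goblet cells, had values of -0.058 and -0.13 in the MB452 pools, against -0.00046 and -0.030 in the control pools. Both MB452 pools lay below both control pools. The difference was -0.079 ± 0.059 (SE), with an adjusted p in limma of 0.822, and with saturated values left out it was -0.12 ± 0.061 (SE). TFF3 was the only gene of the 10 with saturated spots. The first and the third of its 3 features were at the repeated value in the high scans of MB452 B and control B. There the ratio is set by the limit of the scanner. In the low scan, in which none of the 25 features was saturated, these features read 0.086 and 0.085 in MB452 A and -0.20 and -0.22 in MB452 B, against 0.0055 and 0.026 in control A and 0.014 and 0.047 in control B. The 2 MB452 pools thus lay on either side of both control pools. The second feature, which was not saturated, had both MB452 pools below both control pools in each scan, with a difference of -0.095 ± 0.062 (SE).

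**Figure D3:**
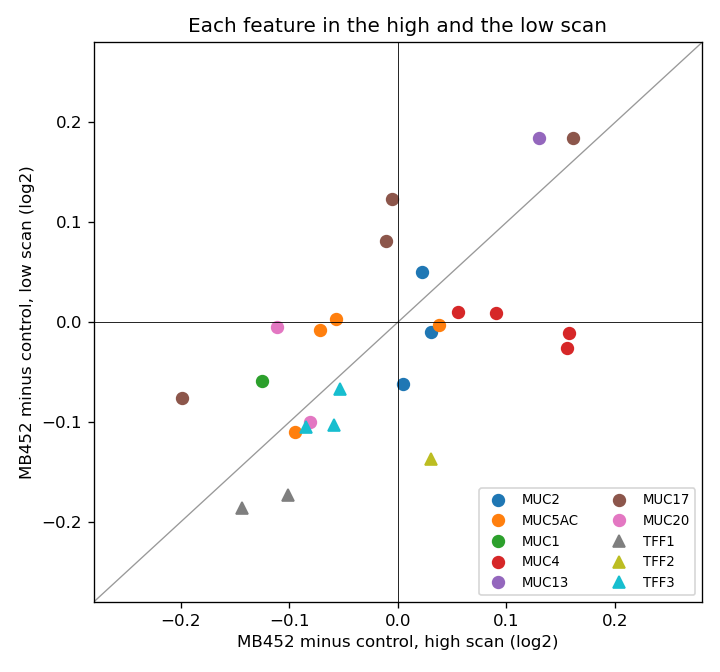
Difference between MB452 and control pools (log2) in the high scan against that in the low scan, 1 point for each of the 25 features. Circles are mucins, triangles trefoil factors and colours genes. The 9 points that lie right of 0 and below 0, or left of 0 and above 0, are features whose sign differed between the scans.

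Over the 25 features, both MB452 pools lay above both control pools in 2 and below them in 8 on slide means, and the groups overlapped in 15. Among all features the groups were apart in 35.6%, above in 18.1% and below in 17.4%. When the groups had to be apart on the same side in each scan, 4 of 25 features remained, the second of MUC17 above and the first of MUC5AC, the second of TFF1 and the second of TFF3 below, beside 16.1% of all features (8.24% above and 7.87% below). The sign of the difference changed between the scans in 9 of 25 features, beside 27.4% of all features. On gene values the groups were apart in 5 of 10 genes, MUC17 above and MUC5AC, MUC1, TFF1 and TFF3 below, beside 37.1% of all genes (17.6% above and 19.5% below).

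The wider mucus pathway was described with 5 lists holding 91 measured genes, of which 3 (3.3%) were past the threshold, beside 1.91% of all genes. ELF3 and GCNT3 were higher and ZG16 was lower with MB452. None of these had an adjusted p in limma under 0.05, the lowest being 0.637, so the 3 are calls by the threshold of the study alone. Without control A 11 of the 91 (12.1%) were past it, beside 9.37% of all genes.

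ZG16, a lectin of goblet cell granules that binds bacterial cell walls, belonged to the list of mucus packaging and goblet cell products. Its values were -0.15 and -0.20 in the MB452 pools, against 0.16 and 0.25 in the control pools. Both MB452 pools lay below both control pools in each scan, and the distance between the groups was several times that between pools of a group. The difference was -0.38 ± 0.061 (SE), or 0.77-fold, and similar in the high (-0.40) and the low scan (-0.37). The unadjusted p in limma was 0.00129 and the adjusted p 0.637. Without control A, which leaves control B alone, the difference was -0.42. With slides as a random block the adjusted p in limma was 0.0482, but that fit enters both scans of the same RNA. In the other settings that kept all 4 pools the adjusted p in limma was up to 0.837. The value rests on a single feature. Of the 13 measured genes of this list 1 was lower and 0 were higher, and the median difference was 0.00062. Of the 7 goblet markers, which include MUC2, TFF3 and ZG16, 3 had positive and 4 negative differences, and ZG16 was the 1 past the threshold.

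GCNT3, which makes the core 2 and core 4 branches of mucin sugar chains, belonged to the list of mucin O-glycosylation. Its values were -0.077 and 0.18 in the MB452 pools, against -0.23 and -0.21 in the control pools. Both MB452 pools lay above both control pools, with MB452 B much the higher. The difference was 0.27 ± 0.096 (SE), or 1.21-fold, just past the fold minimum, with an unadjusted p in limma of 0.0358 and an adjusted p of 0.743. Its 2 features gave differences of 0.12 and 0.42. Without MB452 B the difference was 0.14, and the gene was not past the threshold without MB452 B or without control A (0.26). Of the 29 genes of this list 1 was higher and 0 were lower, with a median difference of -0.013.

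ELF3, an ETS-family transcription factor of epithelial cells, belonged to the list of transcription factors of mucin genes. Its values were 0.19 and 0.10 in the MB452 pools, against -0.26 and -0.23 in the control pools. In each scan both MB452 pools were above both control pools. The high scan read 0.44 and 0.25 with MB452 against -0.17 and -0.16 in controls, and the low scan -0.046 and -0.049 against -0.35 and -0.31, so the difference was 0.51 in the high and 0.28 in the low scan. Averaged, it was 0.39 ± 0.061 (SE), or 1.31-fold, with an unadjusted p in limma of 0.00113 and an adjusted p of 0.637. With slides as a random block the SE was 0.19 and the unadjusted p in limma 0.0641 (adjusted p 0.564). The call was lost in that fit, which enters both scans of the same RNA. In each scan alone ELF3 was past the threshold, with an unadjusted p in limma of 0.00099 in the high and 0.0043 in the low scan. ELF3 was measured by a single feature. Of the 17 measured genes of this list 1 was higher and 0 were lower, with a median difference of 0.048. The 5 mucin promoters searched for GGAAG above belong to genes with differences between -0.092 and 0.16, and binding of ELF3 was not measured.

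In the other 2 lists no gene passed the threshold. The other mucins (12 measured of 14 listed) had differences between -0.080 and 0.12 with a median of 0.015. The highest was MUC16, a membrane mucin, at 0.16 and 0.086 in the MB452 pools against 0.039 and -0.045 in the control pools, with an adjusted p in limma of 0.805. Receptors, lectins and proteases that bind or cleave mucins and trefoil factors (20 genes, 2 of them saturated in all high scans) had a median of 0.020 and differences between -0.52 and 0.13. The lowest of these was CXCR4, a receptor reported for TFF2, at -0.082 and -0.086 in the MB452 pools against 0.056 and 0.81 in the control pools. It was 1 of several list genes in which control B alone was high.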

How the data were processed

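RNA from Caco-2 cells was measured on 4 slides of a 2-colour Agilent array. The authors quantified each scan, discarded poor spots manually, left the background uncorrected, loess-normalised each array with limma (no version in the submitters' processing notes) and deposited log2 ratios of Cy5 over Cy3, the base being taken as 2. The 8 value columns were all used, with 0 left out. For its own calls the paper merged the high and low scan of a slide, with rescaled low-scan values near saturation. Here the scans were averaged, so the threshold of the study was applied to another measure. Columns were median-centred, scans of a slide averaged, and the 42142 features measured on all 4 slides compared between MB452 and control by lmFit and eBayes (limma 3.58.1, R 4.3.3), with Benjamini-Hochberg adjustment over all features or genes. Symbols came from the platform annotation (28992 of 29033 features with 1 symbol updated through RefSeq), and genes were averaged over their features. A value repeated over at least 100 features of a column was taken as saturated. The members and the gene lists were chosen with earlier results of these data known. Named genes are the 10 members and every list gene past the threshold, besides markers. MUC5B, MUC6, MUC16, CXCR4, RETNLB, GCNT4, GFI1 and CDX2 were picked once their values were known. The letters A and B were not taken as pairs, since no source states that they pair the pools. The correlation of same-letter deviations over features was -0.016, which cannot decide how the letters were given. Alternatives covered the scans, saturation, centring, scaling, missing values, the variance model, the threshold, the feature chosen for a gene, a block for the letters and leaving out pools. The fit was tested on simulated slides. Intensities were not used, so signal over background is unknown, and the number of slides limits the precision.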

Additional observations from a re-analysis of the deposited data

How the results depend on the processing

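Over 18 settings for genes and 16 for features, 0 of the 10 mucin and trefoil genes passed the threshold, and 0 of the 25 features except with no fold minimum, where 1 did (the second of MUC17, 0.17, with an adjusted p in limma between 0.376 and 1.000 over its settings). The difference turned sign, still under the threshold, for MUC2 in the low scan only (-0.0072, and the same value in the low scan without its repeated values, a setting chosen after seeing the data), with the median feature (-0.0096) and without control A (-0.034). It did so for MUC4 in the low scan only and in the low scan without its repeated values (-0.0043 each) and without MB452 A (-0.021), for MUC17 in the high scan only (-0.014) and with the most variable feature (-0.14), and for TFF2 in the high scan only (0.030) and without MB452 B (0.089). The other 6 genes kept their sign. With a pool left out, MUC2 lay between -0.034 and 0.046, MUC4 between -0.021 and 0.13 and TFF2 between -0.20 and 0.089. Of the genes that kept their sign, MUC13 lay between 0.040 and 0.27, MUC5AC between -0.064 and -0.011, MUC20 between -0.12 and -0.033, TFF1 between -0.20 and -0.099 and TFF3 between -0.11 and -0.043. The cause of these turns was not tested.

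Counts over all features and genes moved more. Features past the threshold (883) numbered 2317 with no fold minimum, 22 at a fold over 1.5 and 1166 to 4517 with a pool left out (4517 without control A, 1512 without control B). Genes (343) numbered 1166 with no fold minimum, 7 at a fold over 1.5, 583 with the most variable feature and 376 to 1685 with a pool left out (1685 without control A, 542 without control B). The mucus lists (3 genes) had 5 with quantile scaling, 8 with no fold minimum, 0 at a fold over 1.5, 6 with the most variable feature and 4 to 11 with a pool left out (11 without control A, 6 without MB452 A, 5 without control B). The pool letter as a replicate block gave 1061 features, 446 genes, 0 of the 10 genes and 5 list genes. No source states that the letters pair the pools. ZG16 was past the threshold in 17 of 18 settings, ELF3 in 16 and GCNT3 in 14. None of the 3 passed at a fold over 1.5, nor did ELF3 with slides as a random block, while GCNT3 did not pass in the high scan only, without MB452 B or without control A. In settings that kept all 4 pools the adjusted p in limma of ZG16 lay between 0.0482 and 0.837. That of ELF3 lay between 0.547 and 0.837 and that of GCNT3 between 0.278 and 0.837.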

Other observations

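In several genes of the mucus lists control B stood apart from the other 3 pools. RETNLB, a goblet cell product, was at 0.084 and 0.076 in the MB452 pools, against 0.091 in control A and 0.61 in control B. GCNT4, a branching enzyme of mucin sugars, was at 0.042 and 0.029 in the MB452 pools, against 0.034 in control A and 0.60 in control B. GFI1, a transcription factor of secretory cells, was at -0.11 and 0.075 in the MB452 pools, against -0.014 in control A and 0.58 in control B. CDX2, the caudal-type factor of intestinal identity, was at -0.12 and -0.016 in the MB452 pools, against -0.091 in control A and 0.44 in control B. None of these genes, chosen after their values were seen, was past the threshold, and none of the 10 mucin and trefoil genes showed control B alone this high.

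Along the chromosomes, in the order of RefSeq, MUC6, MUC2, MUC5AC and MUC5B are neighbours on chromosome 11, with differences of 0.034, 0.0060, -0.038 and -0.042. TFF3, TFF2 and TFF1 are neighbours on chromosome 21, with differences of -0.079, -0.053 and -0.15. MUC20 and MUC4 are neighbours on chromosome 3 with differences of opposite sign, -0.074 and 0.055. None of these was past the threshold, and no test of neighbours was made.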
